A study of Mus musculus with 11 samples.

Results

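The genes described here encode 10 proteins that hold mouse epithelial cells together or make up their cytoskeleton: the claudins Cldn3, Cldn4, Cldn6 and Cldn7, the adhesion proteins Cdh1 and Epcam, the keratins Krt8, Krt18 and Krt19, and the clathrin adaptor subunit Ap1m2. They were taken by name, through the RefSeq accessions of the array's probes, from a list drawn up with earlier results of these data known. All 10 were found among 20972 named genes on the array, on 11 probes, and all 10 were among the 16279 genes bright enough to test. RNA was measured on 11 one-colour Agilent microarrays of mouse embryonic stem (ES) cells, which are pluripotent cells derived from the early embryo. The cells had the 129/Ola strain background, belonged to the lines E14, HVJu5.1 and HVJu9.3, and were kept for at least 3 passages in one of 3 media, all with LIF, the cytokine that sustains ES cell self-renewal. The media were 2i/LIF, with 5 arrays, where 2i stands for inhibitors of the kinases MEK and GSK3, KOSR/LIF, with 3 arrays, where KOSR is a defined knockout serum replacement, and serum/LIF, with 3 arrays. The labels give no derivation of the lines and no feeder layer. The titles and source names disagree on the line of replicates 1 to 4 in 2i/LIF, so line was not used in the main test.

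Epithelial cells are sealed to each other by tight junctions, whose strands are built from claudins, and are held together below them by adherens junctions, in which E-cadherin (Cdh1) of one cell binds that of the next. Inside the cell, keratins form filaments from pairs of a type II chain (Krt8) and a type I chain (Krt18 or Krt19), the first keratins made in the mouse embryo. ES cells resemble the epiblast of the early embryo and need E-cadherin to grow as compact colonies.

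In 2i/LIF, 7 of the 10 genes were lower than in serum/LIF, led by Krt19 and Krt18, while Cdh1, Cldn3 and Cldn4 did not pass the test. In KOSR/LIF, 9 of the 10 were lower than in serum/LIF, Cdh1, Cldn3 and Cldn4 among them, and Krt19 did not pass. No gene of the 10 was higher than in serum/LIF in either medium by limma, at an adjusted or an unadjusted p under 0.05. Over all genes tested, 9.98% were called lower and 6.74% higher in 2i/LIF against serum/LIF, beside 70% lower among the 10. In KOSR/LIF against serum/LIF, 2.21% of all genes were called lower and 2.37% higher, beside 90% lower among the 10. The median log2 fold change of the 10 was -3.02 for 2i/LIF against serum/LIF, beside 0.026 over all genes tested, and -3.09 for KOSR/LIF against serum/LIF, beside -0.034. Both comparisons use the same serum/LIF arrays, so they are not independent.

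Most ES cell markers were detected in every medium. Of 9 ES cell markers, 8 were well above background on every 2i/LIF array, 8 to 9 on the KOSR/LIF arrays and 9 on the serum/LIF arrays. Fut4, which encodes a fucosyltransferase, was the one not well above background on any 2i/LIF array. Detection does not by itself identify the cells. Of 11 trophoblast markers, 10 to 11 were also well above background on the serum/LIF arrays, and of 13 primitive endoderm markers, 7 to 13 on the KOSR/LIF arrays. One array stood apart in brightness: KOSR/LIF replicate 3 had a 75th percentile of 65.3 intensity units, and there 43.7% of probes were well above background, against 176 to 538 units and 53.7% to 72.6% on the other 10 arrays. Cldn4, Cldn6, Krt8 and Ap1m2 were not well above background on that array, and only there. Each level below is the log2 signal minus the array's own 75th percentile, so it can be set against the same gene on another array but not against another gene. The RNA came from whole cultures, in which fewer cells of a type and less RNA per cell cannot be told apart, and separate cultures are not stated, so a p-value measures the spread between these samples only.

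**Figure D1:**
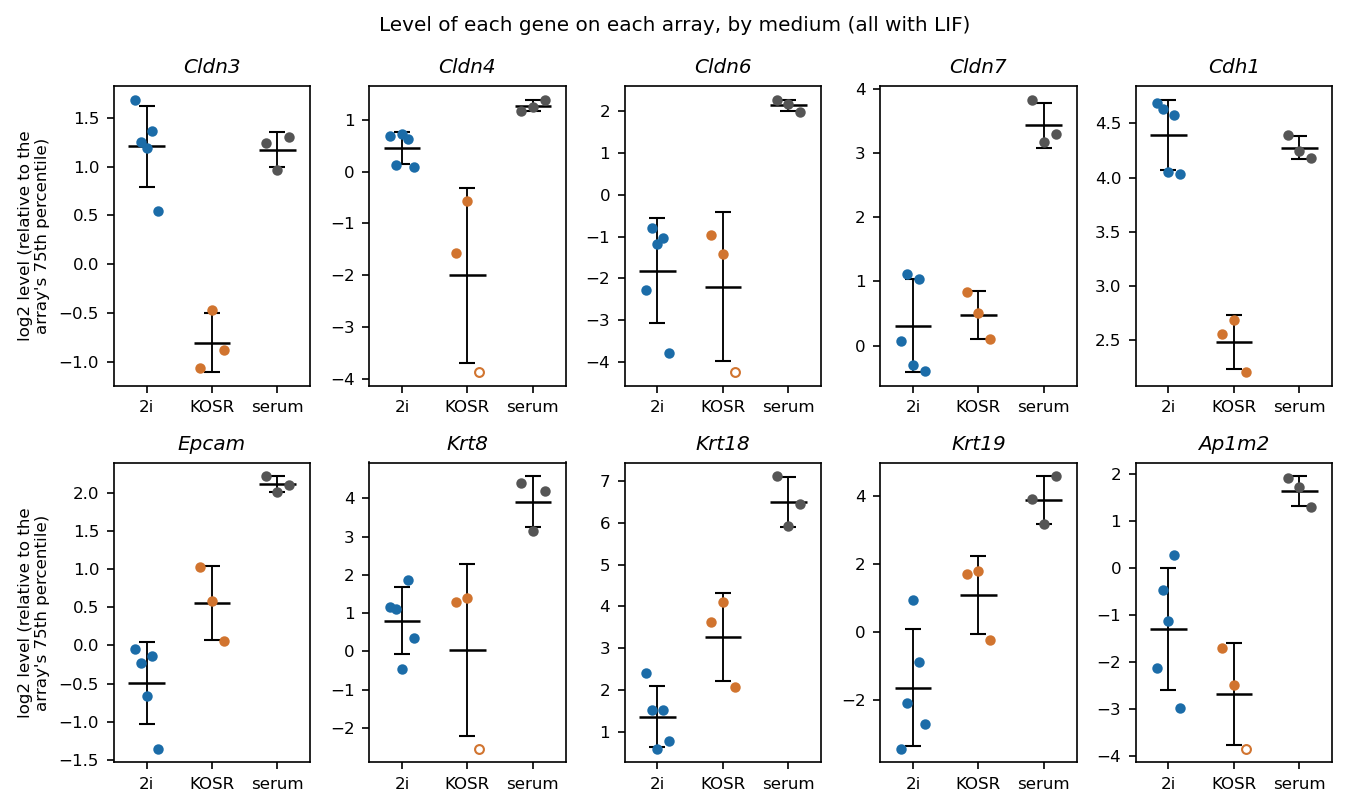
Log2 level of each gene (vertical axis, relative to the 75th percentile of its array) on each array in 2i/LIF (n = 5), KOSR/LIF (n = 3) and serum/LIF (n = 3); points are arrays in the order of their replicate numbers, bars are the mean ± SD, and open points were not well above background. Serum/LIF arrays lie above all others for 8 of the genes, and for Cdh1 and Cldn3 the KOSR/LIF arrays lie apart below the other media.

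The stretch of DNA before a gene's start was available from RefSeq (build GRCm38.p6) for 8 of the 10 genes, with 9 start sites in all because Cldn7 has 2 of them. It was not available for Cdh1 and Krt19. The sequence CACCTG, an E-box that the repressors Zeb1, Zeb2 and Snai1 can bind, was found in at least 1 copy in 7 of the 8 genes. Whether any of these repressors acts on the genes in these cells was not tested. Both strands were searched (CAGGTG is the other strand's reading) over the 250 bases before the start. Counted by start site, 7 of the 9 stretches held 1 copy or more. Of 32851 promoters in the same table, 17.2% held 1 copy or more, 2.06% held 2 or more and 0.247% held 3 or more. Ap1m2 held 4 copies, starting 81, 51, 21 and 9 bases before the start, in chr9:21312334-21312583 (minus strand). Epcam held 2, at 187 and 19 bases, in chr17:87635729-87635978 (plus strand), and the downstream start of Cldn7 held 2, at 97 and 57 bases, in chr11:69965171-69965420 (plus strand). Krt18 held 1, at 214 bases, in chr15:102027966-102028215 (plus strand), and Cldn3 held 0 in chr5:134985964-134986213 (plus strand). Capitals in the 5′ to 3′ sequences mark each copy.
Ap1m2: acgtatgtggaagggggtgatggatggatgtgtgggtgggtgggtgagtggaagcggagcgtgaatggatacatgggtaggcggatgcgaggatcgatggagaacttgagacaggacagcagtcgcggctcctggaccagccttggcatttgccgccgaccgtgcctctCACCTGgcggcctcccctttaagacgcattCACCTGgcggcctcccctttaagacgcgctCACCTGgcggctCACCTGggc
Epcam: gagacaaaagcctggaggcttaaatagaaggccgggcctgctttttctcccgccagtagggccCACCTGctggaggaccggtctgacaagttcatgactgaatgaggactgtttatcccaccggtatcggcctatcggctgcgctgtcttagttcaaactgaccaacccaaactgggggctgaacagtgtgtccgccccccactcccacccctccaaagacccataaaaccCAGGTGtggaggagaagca
Cldn7: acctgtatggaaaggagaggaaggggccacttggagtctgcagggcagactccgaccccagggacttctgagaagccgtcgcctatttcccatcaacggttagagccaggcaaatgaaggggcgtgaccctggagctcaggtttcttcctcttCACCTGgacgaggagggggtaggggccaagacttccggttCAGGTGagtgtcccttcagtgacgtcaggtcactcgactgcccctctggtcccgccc
Krt18: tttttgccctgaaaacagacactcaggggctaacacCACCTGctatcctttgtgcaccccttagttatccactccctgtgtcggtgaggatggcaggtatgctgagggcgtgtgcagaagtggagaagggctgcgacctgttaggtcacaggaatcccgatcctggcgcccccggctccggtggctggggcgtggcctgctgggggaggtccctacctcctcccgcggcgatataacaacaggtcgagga
Cldn3: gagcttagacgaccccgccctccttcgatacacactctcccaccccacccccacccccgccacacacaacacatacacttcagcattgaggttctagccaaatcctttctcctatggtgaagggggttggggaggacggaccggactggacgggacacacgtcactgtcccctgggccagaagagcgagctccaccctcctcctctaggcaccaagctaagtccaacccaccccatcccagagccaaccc
One copy each was found for Cldn4 (14 bases before the start), Cldn6 (93) and Krt8 (111). The sequence AACCNGTT, searched on both strands as the motif of grainyhead factors such as Grhl2, was found in 1.79% of all promoters and in 0 of the 9 stretches of these genes. The motifs share the letters ACCTG where N is T, and a match is a description of the sequence and not a binding site.

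Claudins were low in both serum-free media, but not all of them in both. Cldn6, a claudin of embryonic epithelia, had log2 levels of -2.27, -0.79, -1.16, -1.02 and -3.79 in 2i/LIF, of -0.95, -1.41 and -4.24 in KOSR/LIF, and of 2.26, 2.17 and 1.99 in serum/LIF. Every array of both serum-free media lay below every serum/LIF array. The log2 fold change was -3.95 ± 0.78 for 2i/LIF against serum/LIF (standard error; 15.4-fold lower; adjusted p = 0.00423, limma) and -4.34 ± 0.87 for KOSR/LIF against serum/LIF (20.3-fold lower; adjusted p = 0.0183). With its dim signal on KOSR/LIF replicate 3 set up to the dimmest signal detected there (well above background), the KOSR/LIF difference was -3.72. The 2i/LIF and KOSR/LIF arrays overlapped, with a log2 difference of 0.39 (95% interval -1.32 to 2.10; adjusted p = 0.799), and the sign turned to -0.63 without KOSR/LIF replicate 3.

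Cldn7, a claudin of the basolateral membrane that binds Epcam, had log2 levels of 0.07, 1.12, -0.30, 1.03 and -0.39 in 2i/LIF, of 0.84, 0.51 and 0.09 in KOSR/LIF, and of 3.84, 3.17 and 3.30 in serum/LIF. The serum-free arrays overlapped each other and stayed below the serum/LIF arrays. Cldn7 fell by 3.13 ± 0.39 on the log2 scale in 2i/LIF (8.77-fold; adjusted p = 0.000211) and fell by 2.96 ± 0.43 in KOSR/LIF (7.77-fold; adjusted p = 0.00532), both against serum/LIF. Between 2i/LIF and KOSR/LIF the log2 difference was -0.17 (95% interval -1.02 to 0.67; adjusted p = 0.821).

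Cldn3 and Cldn4, neighbours on chromosome 5 with no protein-coding gene between them, are the receptors of a bacterial enterotoxin and seal the paracellular space. Cldn3 had log2 levels of 1.69, 1.25, 1.19, 1.36 and 0.55 in 2i/LIF, of -1.06, -0.47 and -0.88 in KOSR/LIF, and of 1.25, 0.97 and 1.30 in serum/LIF. The KOSR/LIF arrays were lowest and did not overlap with either of the other media, which overlapped each other. The log2 fold change was -1.98 ± 0.30 for KOSR/LIF against serum/LIF (3.94-fold lower; adjusted p = 0.00613) and 2.01 ± 0.27 for 2i/LIF against KOSR/LIF (4.04-fold higher; adjusted p = 0.000494). For 2i/LIF against serum/LIF it was 0.035, with a 95% interval of -0.55 to 0.62 (adjusted p = 0.964).

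Cldn4 was measured by 2 probes. The brighter gave log2 levels of 0.70, 0.14, 0.72, 0.62 and 0.09 in 2i/LIF, of -1.56, -0.57 and -3.88 in KOSR/LIF, and of 1.17, 1.26 and 1.39 in serum/LIF. The media did not overlap, with 2i/LIF between the others. It fell by 3.28 ± 0.63 on the log2 scale in KOSR/LIF against serum/LIF (9.71-fold; adjusted p = 0.0145), a difference of -2.78 once the dim signal was raised, and was 2.46 ± 0.56 higher in 2i/LIF than in KOSR/LIF (5.50-fold; adjusted p = 0.0117). The log2 difference between 2i/LIF and serum/LIF was -0.82, with a 95% interval of -2.05 to 0.41 (adjusted p = 0.418). The other probe gave -2.46 for KOSR/LIF against serum/LIF (adjusted p = 0.0039, over probes), 1.79 for 2i/LIF against KOSR/LIF (adjusted p = 0.00127) and -0.67 for 2i/LIF against serum/LIF (adjusted p = 0.139), so the probes gave the same calls and directions.

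Cdh1 (chromosome 8) encodes E-cadherin, the calcium-dependent adhesion protein of adherens junctions, and was read from 8 to 10 spots of 1 probe on each array, whose SD lay between 0.0506 and 0.109 on the log2 scale. Its log2 levels were 4.68, 4.63, 4.05, 4.58 and 4.03 in 2i/LIF, 2.56, 2.69 and 2.21 in KOSR/LIF, and 4.39, 4.25 and 4.19 in serum/LIF. KOSR/LIF stood apart below both other media, which overlapped. Cdh1 fell by 1.79 ± 0.26 on the log2 scale in KOSR/LIF against serum/LIF (3.46-fold; adjusted p = 0.0053) and was higher in 2i/LIF than in KOSR/LIF by 1.91 ± 0.23 (3.76-fold; adjusted p = 0.000284). Between 2i/LIF and serum/LIF the log2 difference was 0.12, with a 95% interval of -0.39 to 0.63 (adjusted p = 0.835).

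Epcam (chromosome 17) encodes a membrane protein of epithelial and ES cells that modulates adhesion. It had log2 levels of -0.05, -0.23, -0.67, -0.14 and -1.36 in 2i/LIF, of 1.03, 0.58 and 0.05 in KOSR/LIF, and of 2.23, 2.02 and 2.11 in serum/LIF. The 3 media did not overlap: 2i/LIF was lowest and serum/LIF highest. Epcam was 6.10-fold lower in 2i/LIF (log2 fold change -2.61 ± 0.32; adjusted p = 0.000219) and 2.95-fold lower in KOSR/LIF (-1.56 ± 0.36; adjusted p = 0.0326), both against serum/LIF. For 2i/LIF against KOSR/LIF the log2 difference was -1.05, with a 95% interval of -1.76 to -0.34 and an adjusted p of 0.0514.

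Krt19 and Krt18 had the largest fold changes of the 10 genes between 2i/LIF and serum/LIF. Krt18, the type I partner of Krt8 and its neighbour on chromosome 15, had log2 levels of 2.41, 1.51, 0.59, 1.53 and 0.77 in 2i/LIF, of 3.62, 4.10 and 2.08 in KOSR/LIF, and of 7.11, 5.93 and 6.45 in serum/LIF. All serum/LIF arrays lay above the others, and KOSR/LIF replicate 3 lay below the highest 2i/LIF array. Krt18 was 35.1-fold lower in 2i/LIF compared with serum/LIF (log2 standard error 0.51; adjusted p = 5e-05) and 9.39-fold lower in KOSR/LIF than in serum/LIF (standard error 0.57; adjusted p = 0.0105). It was also lower in 2i/LIF than in KOSR/LIF, with a log2 fold change of -1.90 ± 0.51 (3.74-fold; adjusted p = 0.0269), although the arrays overlapped.

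Krt8, the type II chain, had log2 levels of 1.17, 1.1, -0.46, 1.86 and 0.36 in 2i/LIF, of 1.28, 1.39 and -2.54 in KOSR/LIF, and of 4.41, 3.16 and 4.18 in serum/LIF. The serum/LIF arrays were again highest, and the serum-free media overlapped. The log2 fold change was -3.11 ± 0.82 for 2i/LIF against serum/LIF (8.64-fold lower; adjusted p = 0.0217) and -3.87 ± 0.92 for KOSR/LIF against serum/LIF (14.7-fold lower; adjusted p = 0.0367), or -3.82 with the dim signal on KOSR/LIF replicate 3 raised. Between 2i/LIF and KOSR/LIF it was 0.76 (95% interval -1.04 to 2.57; adjusted p = 0.605), and -0.53 without KOSR/LIF replicate 3.

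Krt19 (chromosome 11), a type I chain of simple epithelia and trophectoderm, varied widely within 2i/LIF. It had log2 levels of -3.44, -2.09, 0.96, -0.89 and -2.71 in 2i/LIF, of 1.70, 1.81 and -0.23 in KOSR/LIF, and of 3.91, 3.19 and 4.59 in serum/LIF. Replicate 3 of 2i/LIF lay among the KOSR/LIF arrays, and both serum-free media lay below serum/LIF. Krt19 was 46.3-fold lower in 2i/LIF compared with serum/LIF (log2 fold change -5.53 ± 0.86; adjusted p = 0.000953). The log2 difference was -2.80 for KOSR/LIF against serum/LIF (95% interval -4.91 to -0.69; adjusted p = 0.137) and -2.73 for 2i/LIF against KOSR/LIF (95% interval -4.62 to -0.84; adjusted p = 0.0558).

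Ap1m2 (chromosome 9) encodes the epithelial form of the medium chain of the AP-1 clathrin adaptor, which sorts proteins to the basolateral membrane. It had log2 levels of -2.13, -0.48, -1.13, 0.28 and -2.98 in 2i/LIF, of -1.70, -2.49 and -3.84 in KOSR/LIF, and of 1.90, 1.71 and 1.29 in serum/LIF. The serum-free arrays overlapped, all below serum/LIF. Ap1m2 was 7.58-fold lower in 2i/LIF (log2 fold change -2.92 ± 0.67; adjusted p = 0.0102) and 19.9-fold lower in KOSR/LIF (-4.31 ± 0.75; adjusted p = 0.0102), both against serum/LIF, and the second difference was -3.82 with the dim signal raised. For 2i/LIF against KOSR/LIF the log2 difference was 1.39 (95% interval -0.09 to 2.87; adjusted p = 0.212). Of the 7 other subunit genes of the AP-1 adaptor, 0 passed in KOSR/LIF against serum/LIF by limma, where 1 was higher and 1 lower at an unadjusted p under 0.05. In 2i/LIF the widely expressed medium chain Ap1m1 rose by 0.74 ± 0.23 on the log2 scale (adjusted p = 0.0418) and the small chain Ap1s3 fell by 4.14 ± 0.23 (adjusted p = 2.24e-06), both against serum/LIF, and Ap1s3 also fell by 3.27 ± 0.23 against KOSR/LIF (adjusted p = 1.45e-05).

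**Figure D2:**
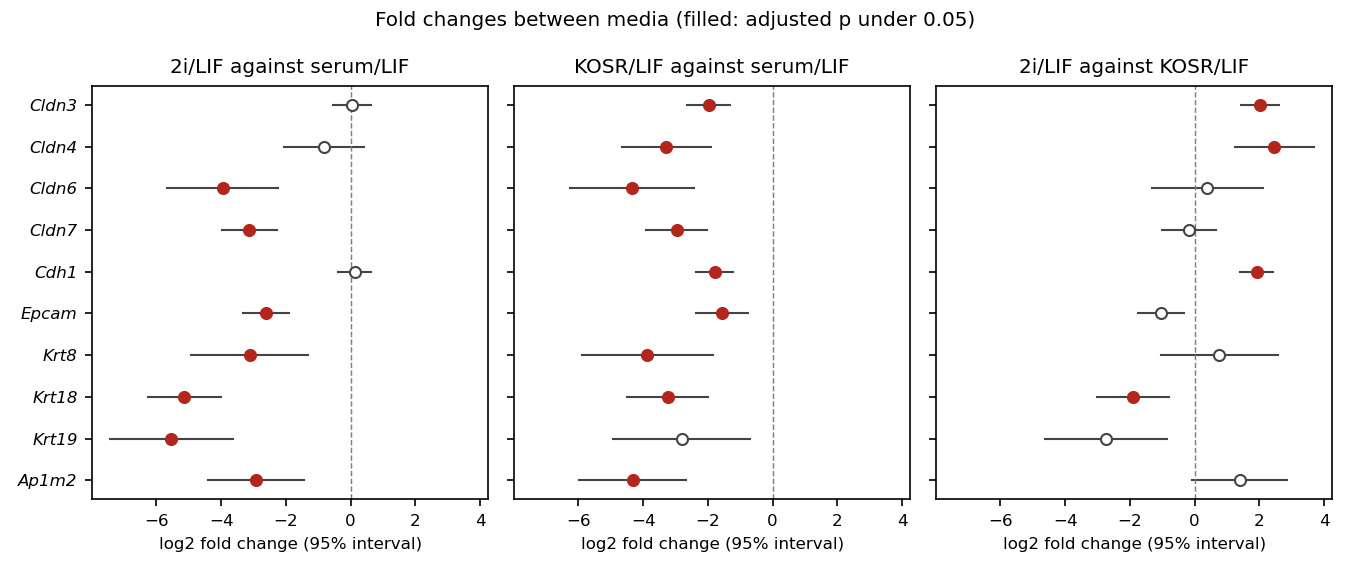
Log2 fold change (horizontal axis) with its 95% interval for each gene in 2i/LIF against serum/LIF, KOSR/LIF against serum/LIF and 2i/LIF against KOSR/LIF; filled points passed an adjusted p of 0.05. Against serum/LIF, 7 genes passed in 2i/LIF and 9 in KOSR/LIF, each to the left of 0; Cdh1 and Cldn3 lie near 0 for 2i/LIF only.

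Set directly against each other on the same arrays, the serum-free media differed in 4 of the 10 genes. Cdh1, Cldn3 and Cldn4 were higher in 2i/LIF than in KOSR/LIF and Krt18 was lower, while over all genes tested 5.95% were called higher and 8.72% lower. This is the test of the difference between the media for those genes, and it passed for the same 3 that had passed in KOSR/LIF and not in 2i/LIF. For Krt19, which passed in 2i/LIF and not in KOSR/LIF, the direct difference did not pass. Without KOSR/LIF replicate 3, 6 of the 10 genes passed, 3 higher and 3 lower, beside 1958 of all 16279 genes, 724 higher and 1234 lower. The median log2 fold change of the 10 was 0.58, beside 0.025 over all genes tested, but its sign was not stable: it was -0.45 without KOSR/LIF replicate 3 and -0.22 in the deposited value table.

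Arrays not overlapping gave a similar count without a fitted spread. Of the 10 genes, 8 lay below all serum/LIF arrays on all 2i/LIF arrays, where 14% of all genes tested did so and 25.7% did not overlap in either direction. All 10 lay below on all KOSR/LIF arrays, where 16% did so and 28.4% did not overlap in either direction. Between 2i/LIF and KOSR/LIF, Cdh1, Cldn3 and Cldn4 were higher and Epcam lower without overlap, beside 9.04% and 10.6% of all genes, 19.6% in all. The count of 9 in KOSR/LIF rested on all 3 serum/LIF arrays: it was 4, 5 and 5 without serum/LIF replicates 1, 2 and 3, where 1.38%, 2.03% and 2.4% of all genes passed. Ap1m2, Cdh1, Cldn3 and Cldn7 passed in each of these 3 fits, and Cldn4, Cldn6, Epcam and Krt8 in none.

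Several of these calls lay close to the threshold. Over 29 other settings for KOSR/LIF against serum/LIF, Krt8 lost its call in 12 (adjusted p up to 0.166), Epcam in 9 (up to 0.12), Cldn4 in 4 (up to 0.0653), Cldn6 in 3 (up to 0.0747) and Krt18 in 3 (up to 0.0557), while Krt19 gained one in 2 (down to 0.0413). Over 30 settings for 2i/LIF against serum/LIF, Krt8 lost its call in 5 (adjusted p up to 0.0945) and Epcam in 1 (0.0727), and Cldn4 gained one in 2 (down to 0.0319). For 2i/LIF against KOSR/LIF, Krt18 lost its call in 6 of 29 (adjusted p up to 0.113) and Cldn4 in 1 (0.0646), whereas Epcam gained one in 9 (down to 0.00137), Krt19 in 8 (down to 0.00653) and Ap1m2 in 2 (down to 0.0255). The calls for Cdh1, Cldn3, Cldn7 and Ap1m2 in KOSR/LIF against serum/LIF passed in all 29.

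Scan days and lines gave the same directions for most differences. On the scan day that held 2 arrays of each medium, the log2 difference from serum/LIF was -5.46 for Krt18, -3.52 for Krt19, -3.31 for Cldn6 and -0.0065 for Cdh1 in 2i/LIF. On the same day it was -2.66 for Krt18, -1.79 for Krt19, -3.39 for Cldn6 and -1.70 for Cdh1 in KOSR/LIF, and all 10 genes were lower there. Another day held 2 arrays of 2i/LIF and 1 of serum/LIF, and there the difference was -4.86 for Krt18, -7.66 for Krt19 and 0.17 for Cdh1. By the lines in the titles, KOSR/LIF was below serum/LIF for all 10 genes in all 3 lines. Cdh1, for example, differed by -2.19 in HVJu5.1, -1.56 in HVJu9.3 and -1.63 in E14, with 1 array of each medium per line. With scan day, slide or the line in the titles as a block, 7 of the 10 genes passed in KOSR/LIF against serum/LIF. Of all 16279 genes, 999, 1013 and 687 passed in these fits. Within the first scan day alone, 6 of the 10 passed, beside 685 of all genes.

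Where other tight junction genes were called against serum/LIF, they were lower. Of 21 listed, 18 were bright enough to test; 9 of the 18 were lower in 2i/LIF and 7 of the 18 in KOSR/LIF than in serum/LIF, and none was higher, also at an unadjusted p under 0.05. The median log2 fold changes were -1.05 and -1.07. Without KOSR/LIF replicate 3 the KOSR/LIF count was 4. In 2i/LIF Cgn, the cytoplasmic plaque protein cingulin, fell by 4.34 ± 0.27 against serum/LIF (adjusted p = 3.12e-06) and fell by 2.40 ± 0.27 against KOSR/LIF (adjusted p = 0.000178). Patj, a scaffold of the apical Crumbs complex, fell by 2.35 ± 0.45 in 2i/LIF (adjusted p = 0.00339) and fell by 2.08 ± 0.50 in KOSR/LIF (adjusted p = 0.039), both against serum/LIF. Its membrane partner Crb3 fell by 3.11 ± 0.82 in 2i/LIF against serum/LIF (adjusted p = 0.0207). In KOSR/LIF, where 1 of 3 arrays measured Crb3 well above background, it fell by 4.21 ± 0.91 against serum/LIF (adjusted p = 0.0251), and its difference was -3.04 once dim signals were raised. Ocln, the tight junction protein occludin, was lower in KOSR/LIF than in serum/LIF, with a log2 fold change of -1.98 ± 0.49 (adjusted p = 0.0419). Pard6b, a polarity protein, was lower in 2i/LIF than in KOSR/LIF, with a log2 fold change of -1.22 ± 0.35 (adjusted p = 0.0373), with 2 arrays of each medium measuring it well above background. Its log2 fold change in 2i/LIF against serum/LIF was -1.53 ± 0.35 (adjusted p = 0.01).

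Of 13 adherens junction genes listed besides Cdh1, 11 were tested; 3 were lower in 2i/LIF compared with serum/LIF, beside 9.98% of all genes, and 0 passed in KOSR/LIF against serum/LIF by limma, where 4 were lower at an unadjusted p under 0.05. N-cadherin (Cdh2) had log2 fold changes in 2i/LIF of -2.47 ± 0.48 against serum/LIF (adjusted p = 0.00358) and -1.74 ± 0.48 against KOSR/LIF (adjusted p = 0.0296). P-cadherin (Cdh3), next to Cdh1 on chromosome 8, fell by 1.63 ± 0.46 in 2i/LIF against serum/LIF (adjusted p = 0.0302), and the actin linker Vcl fell by 0.76 ± 0.22 (adjusted p = 0.0298). Without KOSR/LIF replicate 3, which also enters the estimate of spread, 5 of the 11 passed in 2i/LIF.

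Desmosomes are the spot junctions that anchor keratin filaments. Of their 11 listed genes, 8 were tested; 5 were lower in 2i/LIF and 2 in KOSR/LIF than in serum/LIF. The membrane protein Perp fell by 3.55 ± 0.32 in 2i/LIF (adjusted p = 2.53e-05) and fell by 1.91 ± 0.36 in KOSR/LIF (adjusted p = 0.0132), both against serum/LIF. Ppl, the plakin periplakin, fell by 3.08 ± 0.27 in 2i/LIF (adjusted p = 2.39e-05) and fell by 1.78 ± 0.30 in KOSR/LIF (adjusted p = 0.00953), both against serum/LIF; 2 of 3 KOSR/LIF arrays measured it. The desmosomal cadherin Dsc2 was well above background on 1 of 5 arrays in 2i/LIF; there it fell by 4.72 ± 0.74 against serum/LIF (adjusted p = 0.000953), and the difference was -3.67 once dim signals were raised. Dsg2, another desmosomal cadherin, was higher in 2i/LIF than in KOSR/LIF by 1.34 ± 0.32 (adjusted p = 0.0155), while 4 of the 8 were lower, among them Dsc2, Perp and Ppl, with log2 fold changes of -3.66 ± 0.74, -1.64 ± 0.32 and -1.30 ± 0.27 (adjusted p = 0.00597, 0.00468 and 0.0074); the Dsc2 difference was -2.60 once dim signals were raised.

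Among other keratins, 11 of 12 listed genes were tested, 5 were lower in 2i/LIF compared with serum/LIF, and in KOSR/LIF 3 were lower and 1 higher. Krt17, a type I keratin, fell by 4.21 ± 0.46 in 2i/LIF (adjusted p = 9.01e-05) and fell by 3.64 ± 0.51 in KOSR/LIF (adjusted p = 0.00474), both against serum/LIF. Krt7, a type II keratin of simple epithelia, fell by 2.95 ± 0.51 in 2i/LIF against serum/LIF (adjusted p = 0.00179). Krt20, a keratin of intestinal epithelium, was not well above background on any 2i/LIF array, where it was at least 6.47-fold lower than in serum/LIF (adjusted p = 0.00367) and at least 13.8-fold lower than in KOSR/LIF (adjusted p = 0.000758). Krt42 and Krt13, type I keratins, had log2 fold changes of -3.33 ± 0.77 and -1.98 ± 0.42 in KOSR/LIF against serum/LIF (adjusted p = 0.0317 and 0.0234), each measured there on 2 of 3 arrays. Their log2 fold changes in 2i/LIF against serum/LIF were -2.50 ± 0.69 and -2.17 ± 0.38 (adjusted p = 0.0261 and 0.00188). Krt23, also of type I, went the other way: it was measured on 3 of 3 KOSR/LIF arrays but on 1 array of each other medium, and with dim signals raised it was 3.72 higher in KOSR/LIF than in serum/LIF on the log2 scale (adjusted p of the fit 0.00438), and the difference was -4.16 for 2i/LIF against KOSR/LIF (adjusted p of the fit 0.00034).

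**Figure D3:**
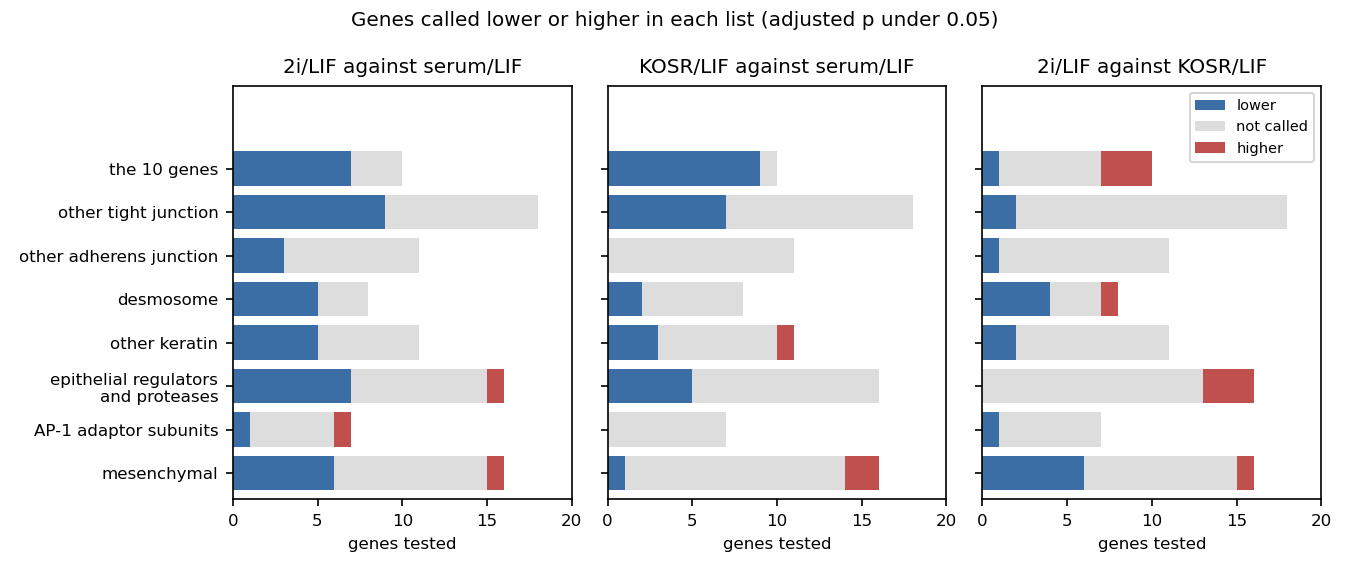
Number of genes tested (horizontal axis) in each list that were called lower, not called or called higher in 2i/LIF against serum/LIF, KOSR/LIF against serum/LIF and 2i/LIF against KOSR/LIF. Against serum/LIF, the 10 genes and the other tight junction genes have calls in 1 direction only, 7 and 9 lower in 2i/LIF and 9 and 7 lower in KOSR/LIF. The desmosome and other adherens junction genes also have none called higher, with 5 and 3 lower in 2i/LIF and 2 and 0 lower in KOSR/LIF.

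Of 16 epithelial regulators and surface proteases, 7 were lower and 1 higher in 2i/LIF compared with serum/LIF, 5 were lower in KOSR/LIF than in serum/LIF, and 3 were higher in 2i/LIF than in KOSR/LIF. Esrp1, an epithelial splicing regulator, had log2 levels of -1.62, -0.84, -1.23, -1.13 and -1.41 in 2i/LIF, of -0.10, -1.03 and 0.10 in KOSR/LIF, and of 1.68, 1.84 and 1.49 in serum/LIF. The serum/LIF arrays were highest. Esrp1 fell by 2.92 ± 0.28 in 2i/LIF (adjusted p = 4.3e-05) and fell by 2.02 ± 0.32 in KOSR/LIF (adjusted p = 0.00687), both against serum/LIF. Grhl2, a grainyhead factor that activates Cdh1 and claudin genes, had log2 levels between -0.93 and 1.58 in 2i/LIF and between -0.30 and 1.04 in KOSR/LIF, against 2.10 to 2.51 in serum/LIF. Grhl2 fell by 2.20 ± 0.56 in 2i/LIF against serum/LIF (adjusted p = 0.0175), and for KOSR/LIF the log2 difference from serum/LIF was -2.14 ± 0.63 (adjusted p = 0.0809). Ovol2, a repressor of Zeb1, had log2 differences from serum/LIF of -0.09 in 2i/LIF and 0.18 in KOSR/LIF (adjusted p = 0.938 and 0.85).

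The epithelial factor Elf3 was the exception in 2i/LIF: it rose there by 2.03 ± 0.31 against serum/LIF (adjusted p = 0.00076) and by 2.65 ± 0.31 against KOSR/LIF (adjusted p = 0.000202). Ovol1, related to Ovol2, was well above background on the 3 serum/LIF arrays and on no 2i/LIF or KOSR/LIF array. It was at least 2.78-fold lower in 2i/LIF (adjusted p = 0.00148, limma) and at least 1.42-fold lower in KOSR/LIF, both against serum/LIF. Ovol1 passed the filter on dim probes through the serum/LIF arrays alone, so its direction follows from the filter and its call is no support. Rab25, a GTPase of epithelial recycling, fell by 4.08 ± 0.57 in KOSR/LIF (adjusted p = 0.00474) and by 1.73 ± 0.51 in 2i/LIF (adjusted p = 0.0377), both against serum/LIF. It was 2.34 ± 0.51 higher in 2i/LIF than in KOSR/LIF (adjusted p = 0.00936). The membrane-anchored protease Prss8 fell by 2.54 ± 0.43 in KOSR/LIF (adjusted p = 0.00911) and by 2.12 ± 0.38 in 2i/LIF (adjusted p = 0.00244), both against serum/LIF. The protease St14 fell by 1.57 ± 0.32 in KOSR/LIF against serum/LIF (adjusted p = 0.0186) and was 1.51 ± 0.28 higher in 2i/LIF than in KOSR/LIF (adjusted p = 0.00397). Rab25 and Prss8 were each measured on 2 of 3 KOSR/LIF arrays.

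Zeb1, a repressor of Cdh1 and other epithelial genes, ran opposite to most of the 10. Its log2 levels were 0.75, 0.09, 1.18, 0.55 and 1.35 in 2i/LIF, 1.25, 1.54 and 1.29 in KOSR/LIF, and -1.20, -0.20 and -0.33 in serum/LIF. All serum-free arrays lay above all serum/LIF arrays. Zeb1 rose by 1.36 ± 0.32 in 2i/LIF (adjusted p = 0.0119) and by 1.94 ± 0.36 in KOSR/LIF (adjusted p = 0.0132), both against serum/LIF; with median scaling the differences were 1.27 and 1.56 and did not pass (adjusted p = 0.0618 and 0.088). Between 2i/LIF and KOSR/LIF the log2 difference was -0.58 ± 0.32 (adjusted p = 0.285). Over the 11 arrays its level had a Pearson r of -0.89 with the mean standardized level of the 10 genes, where Esrp1 had 0.72, Grhl2 0.69, Snai1 0.35, Zeb2 0.15 and Ovol2 -0.15. These arrays share media and lines, so the values are a description. In 2i/LIF, where Zeb1 rose, Cdh1 and Cldn3 had log2 differences from serum/LIF of 0.12 and 0.035. Whether Zeb1 acts on any of the 10 genes was not tested.

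Mesenchymal genes were called in both directions. Of 18 listed, 16 were tested; 1 was higher and 6 lower in 2i/LIF compared with serum/LIF, and 2 were higher and 1 lower in KOSR/LIF than in serum/LIF. Zeb2 was not well above background on any 2i/LIF array; it was at least 3.88-fold lower there than in serum/LIF (adjusted p = 2.74e-05) and at least 8.36-fold lower than in KOSR/LIF (adjusted p = 1.45e-05). In KOSR/LIF its log2 difference from serum/LIF was 1.11 ± 0.38 (adjusted p = 0.131). Twist2, a mesenchymal factor, was also not well above background on any 2i/LIF array and at least 5.15-fold lower than in serum/LIF there (adjusted p = 0.000164). The contractile actin Acta2 had log2 fold changes in 2i/LIF of -4.52 ± 0.78 against serum/LIF (adjusted p = 0.00176) and -5.11 ± 0.78 against KOSR/LIF (adjusted p = 0.00108). The collagen chain Col1a2 was 1.97 ± 0.44 higher in KOSR/LIF than in serum/LIF (adjusted p = 0.0271). In 2i/LIF it fell by 4.38 ± 0.39 against KOSR/LIF (adjusted p = 4.76e-05) and by 2.41 ± 0.39 against serum/LIF (adjusted p = 0.00122). S100a4, a calcium-binding protein, fell by 2.22 ± 0.51 in KOSR/LIF against serum/LIF (adjusted p = 0.0322), on 2 of 3 arrays well above background.

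Vim, the mesenchymal filament protein vimentin, had log2 differences from serum/LIF of 0.80 ± 0.56 in 2i/LIF and 0.85 ± 0.63 in KOSR/LIF (adjusted p = 0.436 and 0.507). The repressor Snai1 had 0.23 ± 0.47 and -0.67 ± 0.52 (adjusted p = 0.847 and 0.528). Fibronectin (Fn1) had -0.05 and -0.89 (adjusted p = 0.935 and 0.071) and was 0.84 ± 0.22 higher in 2i/LIF than in KOSR/LIF (adjusted p = 0.0271).

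**Figure D4:**
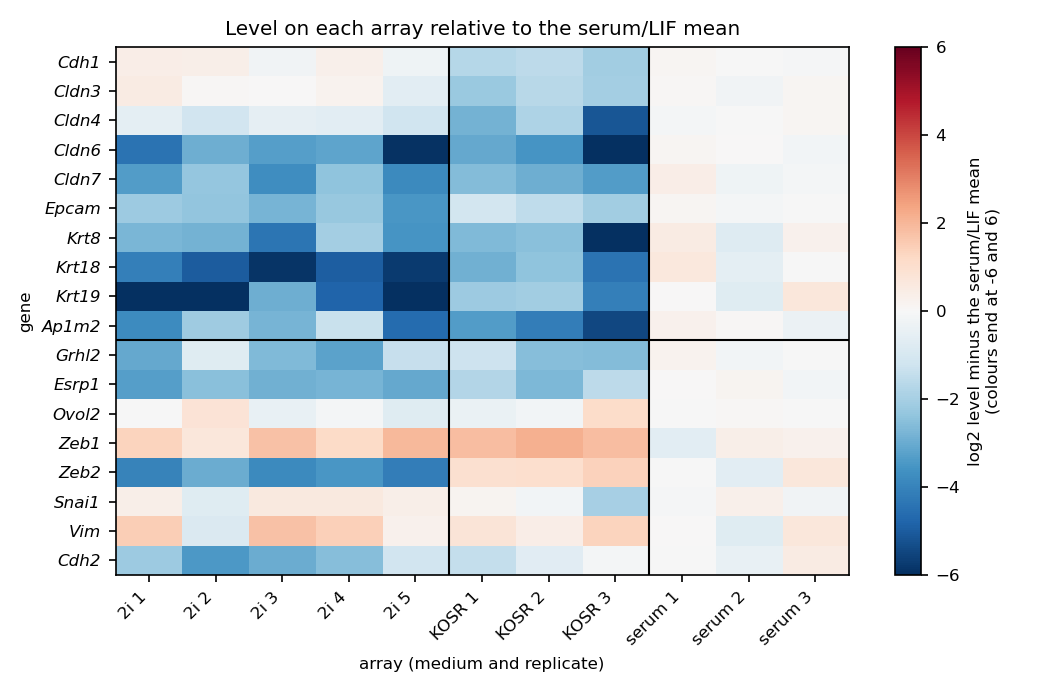
Log2 level of each of the 10 genes (above the line) and of 8 regulators and mesenchymal genes (below it) on each array, as the difference from the mean of the serum/LIF arrays; columns are arrays of 2i/LIF, KOSR/LIF and serum/LIF, and colours end at -6 and 6. Zeb1 is the row that is higher on every serum-free array, and Cdh1 and Cldn3 are the rows that are lower on the KOSR/LIF arrays and near 0 on the 2i/LIF arrays.

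Markers of other cell types were set beside these values. Summed over 11 trophoblast markers, the level relative to each array's 75th percentile ranged from 35.9 to 272 in 2i/LIF, from 42.6 to 103 in KOSR/LIF and from 100.02 to 247 in serum/LIF. Most of that summed signal came from 1 gene, the trophoblast factor Gcm1, which made up 46.2% to 93.3% of it in 2i/LIF, 66.8% to 86.5% in KOSR/LIF and 66.9% to 91.1% in serum/LIF. Sums, shares and rankings across genes, here and below, are of probe signal and do not compare amounts of RNA between genes. The other 10 summed to 14.7 to 19.3 in 2i/LIF, to 12.2 to 16.8 in KOSR/LIF and to 21.9 to 33.2 in serum/LIF. Without Gcm1 the sum was thus highest on the serum/LIF arrays. Tfap2c had the highest mean log2 level of these 10 in each medium, and its differences from serum/LIF did not pass. They were -0.75 in 2i/LIF and -0.94 in KOSR/LIF (adjusted p = 0.0581 and 0.0776, limma). Tfap2a went the other way in 2i/LIF, where it was 2.88 ± 0.30 higher than in serum/LIF (adjusted p = 6.33e-05). Of the 11 markers, 7 to 9 were well above background on 2i/LIF arrays, 6 to 10 on KOSR/LIF arrays and 10 to 11 on serum/LIF arrays; in 2i/LIF 2 were lower and 1 higher than in serum/LIF, and in KOSR/LIF 0 passed by limma, with 1 lower at an unadjusted p under 0.05. Hand1 and Plac1 were not well above background on any 2i/LIF array, and Elf5 on any KOSR/LIF array. Summed over 13 primitive endoderm markers, the level ranged from 11.3 to 21.9 in 2i/LIF, from 12.6 to 62.7 in KOSR/LIF and from 22.7 to 25.8 in serum/LIF. Of these, 4 were lower in 2i/LIF, and 1 was higher in KOSR/LIF, than in serum/LIF; without KOSR/LIF replicate 3 the KOSR/LIF count was 5. At an unadjusted p under 0.05, 7 of the 13 were higher in KOSR/LIF than in serum/LIF, and the median log2 fold change was 1.76. Between the serum-free media, 10 of the 13 were lower in 2i/LIF than in KOSR/LIF and 0 higher, with a median of -2.98. The laminin chain Lama1 made up 85.1% to 95.2% of the endoderm sum in 2i/LIF, 34.4% to 49.3% in KOSR/LIF and 43.8% to 62.9% in serum/LIF; the other 12 summed to 0.98 to 2.07 in 2i/LIF, to 8.25 to 31.8 in KOSR/LIF and to 9.57 to 13.3 in serum/LIF. Fibroblast markers, 8 in number, summed to 1.80 to 3.38 in 2i/LIF, to 3.51 to 4.86 in KOSR/LIF and to 3.88 to 6.79 in serum/LIF, and 4 were lower in 2i/LIF compared with serum/LIF. The 6 neural markers summed to 8.93 to 19.2 in 2i/LIF, to 9.10 to 18.3 in KOSR/LIF and to 13.0 to 13.5 in serum/LIF. The part of other cell types in the differences was not tested.

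ES cell markers summed to 274 to 416 in 2i/LIF, to 147 to 239 in KOSR/LIF and to 333 to 415 in serum/LIF. The KOSR/LIF arrays that were low in Cdh1 were thus low in this sum too. Of the 9 markers, 1 was called lower and 0 higher in KOSR/LIF than in serum/LIF. Sox2, a core pluripotency factor, fell by 1.35 on the log2 scale in KOSR/LIF against serum/LIF (adjusted p = 0.0132) and was 0.80 higher in 2i/LIF than in KOSR/LIF (adjusted p = 0.0334). Nanog, another, was 1.81 higher in 2i/LIF than in KOSR/LIF (adjusted p = 0.0113), and for Pou5f1 the same log2 difference was 1.02 (adjusted p = 0.135). For KOSR/LIF against serum/LIF the log2 differences were -0.99 for Nanog and -1.09 for Pou5f1 (adjusted p = 0.275 and 0.229). Between the serum-free media, 4 of the 9 markers were higher in 2i/LIF and 1, Fut4, was lower. Fut4 was at least 4.04-fold lower in 2i/LIF than in KOSR/LIF (adjusted p = 0.000788). Whether the Cdh1 difference and the marker differences go together was not tested.

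Across the 11 arrays, Pearson's r between the 10 genes ranged from -0.18 to 0.97 in the 45 pairs, with a median of 0.71, and was above 0 in 42. With each medium's mean taken away, 43 pairs had an r above 0, with a range of -0.16 to 0.90 and a median of 0.60, so arrays low for one gene in a medium tended to be low for the others. The arrays share brightness as well as media: KOSR/LIF replicate 3, the dimmest array, had the lowest mean standardized level of the 10 genes, -1.28, while 2i/LIF ranged from -0.77 to 0.07 and serum/LIF from 0.97 to 1.23.

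Outside the lists, the 8 genes whose levels most resembled the mean standardized level of the 10 over the 11 arrays were Zfp36l2, Cblc, Pdgfb, Gldc, Rabgap1l, Bspry, Arhgap8 and Bicdl2, with r between 0.94 and 0.97. Zfp36l2, an RNA-binding protein that promotes mRNA decay, had a mean log2 level of 2.77 in 2i/LIF, 2.47 in KOSR/LIF and 3.70 in serum/LIF (SD 0.26, 0.53 and 0.11). Cblc, a ubiquitin ligase, averaged 0.50 in 2i/LIF, -0.04 in KOSR/LIF and 2.01 in serum/LIF (SD 0.41, 0.30 and 0.23). Both were highest in serum/LIF, as most of the 10 genes were, which follows from how they were picked.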

How the data were processed

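RNA from ES cells in 3 media was hybridised to 11 one-colour Agilent arrays. Per the file headers, the authors' scanner files were made with Feature Extraction 11.0.1.1, and the deposited intensity used here is the processed signal, already background-corrected by that software. The deposited value table holds processed intensity values of the same arrays; it was matched by probe name (rank correlation with the scanner values 0.842 to 0.999), its column medians lay between 46.5 and 47.8, and its scaling is not stated. It served as an alternative. Control spots and outlier flags were left out, spots of a probe were averaged, and log2 signal minus each array's 75th percentile was taken. Probes were named through RefSeq accessions (27656 of 29123 with one). A probe was kept if well above background on 3 or more arrays, and the brightest probe stood for a gene. limma 3.58.1 in R 4.3.3 (lmFit, eBayes, 8 residual degrees of freedom) tested 16279 genes, two-sided, with Benjamini-Hochberg adjustment and a threshold of 0.05. The script was tested on simulated data. A gene dim on every array of a medium has only a bound, from the lowest signal well above background; the number of arrays limits precision. The 10 genes and all lists were chosen with earlier results of these data known. Named were the 10 genes, up to 3 genes per list and comparison with the largest changes in its main direction and 1 in the other, 12 fixed regulators and markers, and the 8 genes most like the 10. One gene that this rule names is not reported here. The scanner files hold no mean signal column, so normexp used median signals. Alternatives changed the background, scaling, filter, probe rule, blocks (scan day, slide, line, replicate number), weights and arrays left out. Same-numbered arrays did not deviate together (r -0.20 to 0.18 over 9 pairs).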

Additional observations from a re-analysis of the deposited data

How the results depend on the processing

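Of the log2 fold changes of the 10 genes under all alternatives, 791 kept direction and side of the threshold, 44 lost the call, 23 gained one and 22 changed sign, all 22 in differences that were not called. The count of the 10 genes called was 6 to 7 for 2i/LIF against serum/LIF, 4 to 9 for KOSR/LIF against serum/LIF and 3 to 6 for 2i/LIF against KOSR/LIF with each array left out in turn. Over all genes those ranges were 1869 to 3203, 225 to 915 and 1759 to 2593, where all arrays gave 2722, 745 and 2388. The replicate block, whose numbers do not pair these arrays, gave 7, 9 and 2 of the 10 genes and 1929, 503 and 1408 of all genes. Scan day, slide or the titles' line as a block gave 7 of the 10 in KOSR/LIF against serum/LIF, with 999, 1013 and 687 of all genes. The source names' line gave 9 of the 10 and 685 of all genes there. Normexp gave 1755, 374 and 1517 of all genes and array weights 4250, 3194 and 4134; KOSR/LIF against serum/LIF without the filter gave 451, and 2i/LIF against serum/LIF within the third scan day, with fewer arrays, 1117. Median scaling moved the median of all genes to -0.41 in KOSR/LIF against serum/LIF and 0.31 in 2i/LIF against KOSR/LIF. It split their calls into 141 higher and 432 lower and into 912 and 831, where the main scaling gave 386 and 359 and 969 and 1419; scaling on probes detected on all arrays gave 462 and 293 and 778 and 1695. Without the filter the medians were 0.15 and -0.15. Cdh1 in 2i/LIF against serum/LIF was -0.0065 within the first scan day. Cldn3 there was -0.051 with median scaling, -0.18 within the third scan day and -0.085 to 0.20 with an array left out. In 2i/LIF against KOSR/LIF, Cldn6 was -0.31 with normexp, -0.47 in the deposited value table, -0.073 with slide as a block, -0.65 with weights and -0.63 to 1.02 with an array left out. Cldn7 was 0.11 with median scaling, 0.0023 in the value table, 0.062 with scan day as a block, 0.14 without 2i/LIF replicates 1 and 5, and -0.38 to 0.0035 with an array left out. Krt8 was -0.43 in the value table, -0.63 with slide as a block, -0.64 within the first scan day, -0.40 with weights and -0.53 to 1.44 with an array left out. The cause of these changes was not tested. Signal over background limits Cldn4, Cldn6, Krt8 and Ap1m2 on KOSR/LIF replicate 3.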
